A study of Rattus norvegicus with 2 samples.

Results

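Genes of the circadian clock and its direct output were examined in the hearts of male Dahl salt-sensitive rats, which were bred for the rise in blood pressure that dietary salt gives them. They are 8 genes: Dbp, Tef, Nr1d1, Nr1d2, Per2, Bmal1, Bhlhe40 and Bhlhe41. Every probe set whose platform annotation symbol was one of these names was taken, which gave 11 of the 8740 non-control probe sets and 8 of 4736 gene symbols. RNA of each group was read on 1 oligonucleotide array at an age of 17 weeks. The high-salt group was fed a high salt diet and is labelled as having chronic heart failure, and the low-salt group was fed a low salt diet. The labels name no chamber of the heart, no number of animals behind each RNA and no time of day of collection. Because the levels of clock transcripts change over the day, diet and hour of collection cannot be told apart for any value below. Diet and the labelled heart failure cannot be told apart either, because the heart failure label goes with the high-salt array. Each diet had a single array, so replicate spread is unknown, no test was made, and each difference compares these 2 arrays only.

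The mammalian clock, present in most tissues, is a feedback loop of transcription factors. BMAL1 pairs with CLOCK and binds E-box elements in DNA, where it switches on its own inhibitors, the PER and CRY proteins, and also the nuclear receptors NR1D1 and NR1D2 (REV-ERB alpha and beta), the repressors BHLHE40 and BHLHE41 (DEC1 and DEC2) and the PAR bZIP factors DBP and TEF. The REV-ERB receptors bind RORE elements and repress Bmal1, while the PAR bZIP factors bind D-box elements and carry the rhythm to output genes. Heart muscle cells hold such a clock, and transcripts of fuel metabolism are among those that cycle in the heart.

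Letters of these elements were looked for in the promoters of the members. The RefSeq promoter windows (assembly GRCr8, 250 bases before to 50 after an annotated gene start) were found for all 8 genes, with 2 windows for Nr1d1. They were searched for the E-box letters CACGTG, for the D-box letters TTATGTAA and TTACGTAA, and for AGGTCA, the core of a RORE, on both strands. No matches overlapped. The windows of Dbp, Tef and Nr1d1 are shown in full because these are the genes whose signal reached the noise floor defined below, with matches in capitals; the window of Nr1d1 is the second, which holds a match. They lie at chr1:105312006-105312305 (plus strand), chr7:115206577-115206876 (plus strand) and chr10:84229405-84229704 (minus strand).
Dbp: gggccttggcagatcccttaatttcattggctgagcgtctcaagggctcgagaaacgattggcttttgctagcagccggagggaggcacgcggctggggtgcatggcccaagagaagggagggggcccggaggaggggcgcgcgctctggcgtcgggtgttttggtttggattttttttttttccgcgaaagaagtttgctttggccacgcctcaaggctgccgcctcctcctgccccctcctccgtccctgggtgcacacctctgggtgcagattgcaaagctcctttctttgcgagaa
Tef: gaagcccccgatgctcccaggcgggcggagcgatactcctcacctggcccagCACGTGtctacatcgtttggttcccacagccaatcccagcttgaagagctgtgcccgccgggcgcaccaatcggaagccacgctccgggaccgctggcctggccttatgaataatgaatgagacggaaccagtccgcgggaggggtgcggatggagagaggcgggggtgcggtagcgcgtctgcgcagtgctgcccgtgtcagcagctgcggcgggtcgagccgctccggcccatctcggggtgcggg
Nr1d1: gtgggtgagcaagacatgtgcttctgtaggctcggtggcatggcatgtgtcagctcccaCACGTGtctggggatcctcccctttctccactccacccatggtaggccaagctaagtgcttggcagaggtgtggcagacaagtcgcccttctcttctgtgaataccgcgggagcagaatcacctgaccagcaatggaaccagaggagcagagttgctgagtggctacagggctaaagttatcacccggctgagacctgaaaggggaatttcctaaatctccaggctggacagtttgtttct

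The Tef window held an E-box that began at position -198 from the gene start, and the second Nr1d1 window held an E-box at position -191. No letters searched for were found in the Dbp window, nor in the first Nr1d1 window at chr10:84231763-84232062 (minus strand). The stretches around the matches of the other 5 members are given to show the letters found. They lie at chr4:143174218-143174247 (plus strand) for Bhlhe40, chr4:180569386-180569415 (minus strand) for Bhlhe41, chr9:99497166-99497197 (minus strand) for Per2, chr15:9954835-9954864 (plus strand) for Nr1d2 and chr1:176766301-176766330 (plus strand) for Bmal1. Capitals mark an E-box in Bhlhe40 and Bhlhe41, a D-box in Per2, and a RORE core in Nr1d2 and Bmal1.
Bhlhe40: agcgttgtccaaCACGTGagactcatgtga
Bhlhe41: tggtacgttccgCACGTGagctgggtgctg
Per2: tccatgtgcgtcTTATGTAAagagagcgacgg
Nr1d2: gattggaaggagAGGTCAggaacgcgcata
Bmal1: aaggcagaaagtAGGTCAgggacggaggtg

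Of all 33469 promoter windows of the rat, 6.42% held the E-box letters, 1.01% held a D-box and 16.2% held the RORE core. Among the 9 windows of the members, 4 held the E-box letters, 1 held a D-box and 2 held the RORE core. A match describes the letters and does not show that a factor binds there.

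**Figure D1:**
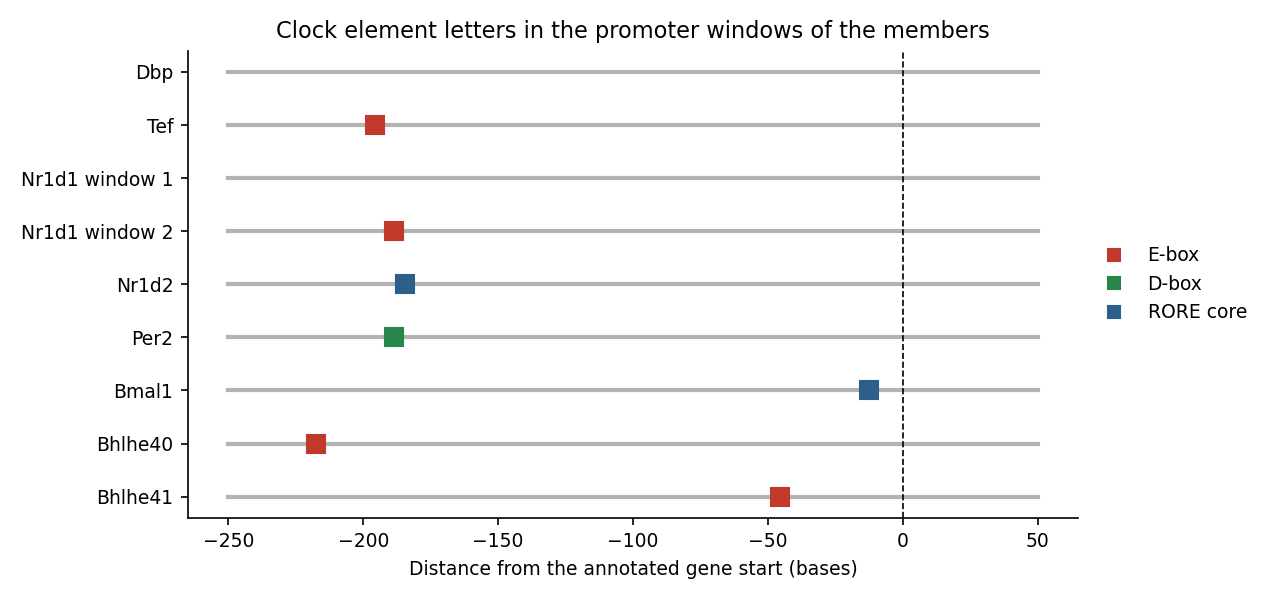
Each row is a promoter window of 1 member, the horizontal axis is the distance in bases from the annotated gene start, and squares mark E-box letters (red), D-box letters (green) and the RORE core (blue). E-boxes stand in the windows of Tef, Nr1d1 (window 2), Bhlhe40 and Bhlhe41, and the RORE core of Bmal1 begins at position -15.

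The deposited values are intensities on a linear scale that include readings below 0. A noise floor of 126.4 was therefore set, a level that 95% of the readings below 0 do not exceed in size, and it stands in for a detection call. A ratio was taken with both readings raised to this floor, so that it is a bound wherever 1 of them lay under it, and no ratio was taken where both did. On the high-salt array 20.0% of probe sets reached the floor and on the low-salt array 20.3% did. The 2% trimmed mean intensity without controls was 98.97 on the high-salt array and 99.07 on the low-salt array. Among genes with several probe sets above the floor on both arrays, the log2 ratio of probe sets of the same gene had a pooled SD of 0.22 (231 genes, 513 probe sets), a measure of error that holds no variation between animals. No member probe set was above the floor on both arrays, so this SD does not give the error of any member ratio.

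Dbp was at least 2.25-fold lower and Tef at least 2.05-fold lower in the high-salt heart, with Tef close to the 2-fold limit. The repressor Nr1d1 was at least 1.58-fold lower in its brighter probe set, a bound that does not settle whether it passed 2-fold. The noise floor was reached by 4 member probe sets, of which 2 passed 2-fold downward and none upward. Over all 1955 probe sets measured this way, 1.69% were at least 2-fold lower and 3.53% at least 2-fold higher. With a lower floor of 10.9, under which 40% of the values lie, 5 of 10 member probe sets with a ratio were at least 2-fold lower. Over all 5707 probe sets with a ratio, 7.62% were at least 2-fold lower. None of the 10 was at least 2-fold higher, beside 7.27% of all. The 5 were both probe sets of Dbp, built on the same sequence record, and those of Tef, Nr1d2 and Bhlhe41. Of these, the dimmer Dbp probe set, Nr1d2 and Bhlhe41 lay under the noise floor on both arrays. The median log2 ratio against the noise floor was -0.85 over the 4 member probe sets and -0.04 over all probe sets. All 4 reached the floor on the low-salt array alone, so none of their ratios could have come out above 1, and their shared direction adds no support. The 1.69% is over probe sets that reached the floor on either array, so it is not a like base for the 2 of 4. The share lower among probe sets that reached it on the low-salt array alone was not counted. The 7 other member probe sets, which include all those of Nr1d2, Per2, Bmal1, Bhlhe40 and Bhlhe41, lay under the floor on both arrays.

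Dbp encodes a PAR bZIP activator whose transcript is among the most strongly cycling in rodent tissues. Its probe set J03179_g_at read -39.2 on the high-salt array and 284.5 on the low-salt array, that is, above the floor on the low-salt array and below 0 on the high-salt array. The companion J03179_at, built on the same sequence record, read -17.4 on high salt against 50.6 on low salt, with both readings under the floor. The log2 ratio of J03179_g_at was -1.17 with the high-salt reading raised to the floor, a bound set by the floor and not a measured size. Of 440 probe sets that read between 200 and 350 on the low-salt array, 31 (7.05%) lay under the noise floor on the high-salt array, and Dbp was the 1 (0.227%) that read 0 or less there. In the opposite direction, 1 of 407 probe sets between 200 and 350 on the high-salt array read 0 or less on the low-salt array: S58644_at, which has no symbol. Over all 1772 probe sets at or above the floor in the low-salt heart, only Dbp and Dhrs7c (-2.7 on the high-salt array and 174.3 on the low-salt array) read 0 or less in the high-salt heart. These windows, S58644_at and Dhrs7c were chosen after the values were seen.

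Tef encodes a second PAR bZIP factor, closely related to DBP. Its 1 probe set, S58745_at, read 108.7 on the high-salt array and 259.4 on the low-salt array. As read, the low-salt value was 2.39 times the high-salt value, and because the high-salt reading was under the floor the ratio is given as at least 2.05-fold lower. It stood just past the 2-fold limit. Both arrays were also scaled to their median reading above 0, with the noise floor set anew. The log2 ratio was then -0.996 and Tef no longer counted. The third PAR bZIP gene, Hlf, was under the noise floor in all 3 of its probe sets, with its brightest, S79820_at, at 5.9 on the high-salt array and 22.6 on the low-salt array.

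Nr1d1 encodes REV-ERB alpha, which represses Bmal1. The probe set M25804_at read 125.0 on the high-salt array and 200.3 on the low-salt array, and M25804_g_at read 77.7 on high salt against 145.4 on low salt. Both were lower on the high-salt array, by at least 1.58-fold and at least 1.15-fold against the floor. As read, the low-salt values were 1.60 and 1.87 times the high-salt values. In the RefSeq annotation Nr1d1 overlaps Thra, which encodes a thyroid hormone receptor. Whether these probe sets lie in the overlap was not tested. The Thra probe set M31174_at read 118.7 on the high-salt array and 179.3 on the low-salt array, and the other Thra probe sets, X12744_at (48.7 on high salt against 75.3 on low salt) and M31174_g_at (14.2 on high salt against -59.7 on low salt), were under the floor on both arrays. The related receptor gene Nr1d2 (U20796_at) read 23.7 on the high-salt array and 98.8 on the low-salt array. Its high-salt reading was the lower, but neither cleared the noise.

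The loop's core and its other repressors gave readings within the noise. Per2, which encodes an inhibitor of the BMAL1 and CLOCK pair, read 26.1 on the high-salt array and 41.5 on the low-salt array (AB016532_at). Bhlhe41, a repressor that competes for E-boxes, read 53.7 on high salt against 114.3 on low salt (AF009329_at). For the related Bhlhe40 the readings were 29.6 and 24.3 in the high-salt and the low-salt heart (AF009330_at). Bmal1, the activator that peaks opposite to Dbp and Nr1d1 in a running clock, had readings of 20.6 on the high-salt array and 29.5 on the low-salt array (AF015953_at). Its other probe set, AB012600_s_at, read -20.3 on high salt against -61.3 on low salt. The 2 Bmal1 probe sets did not share a direction, and no direction can be given for Bmal1 or Bhlhe40 at this signal. As read, with no floor, 9 of the 11 member probe sets were lower on the high-salt array, beside 52.6% of all 8740 probe sets. Of the 11, 7 lay under the noise floor on both arrays, and Dbp, Nr1d1 and Bmal1 count with 2 probe sets each. The count is therefore not read as a shared direction.

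**Figure D2:**
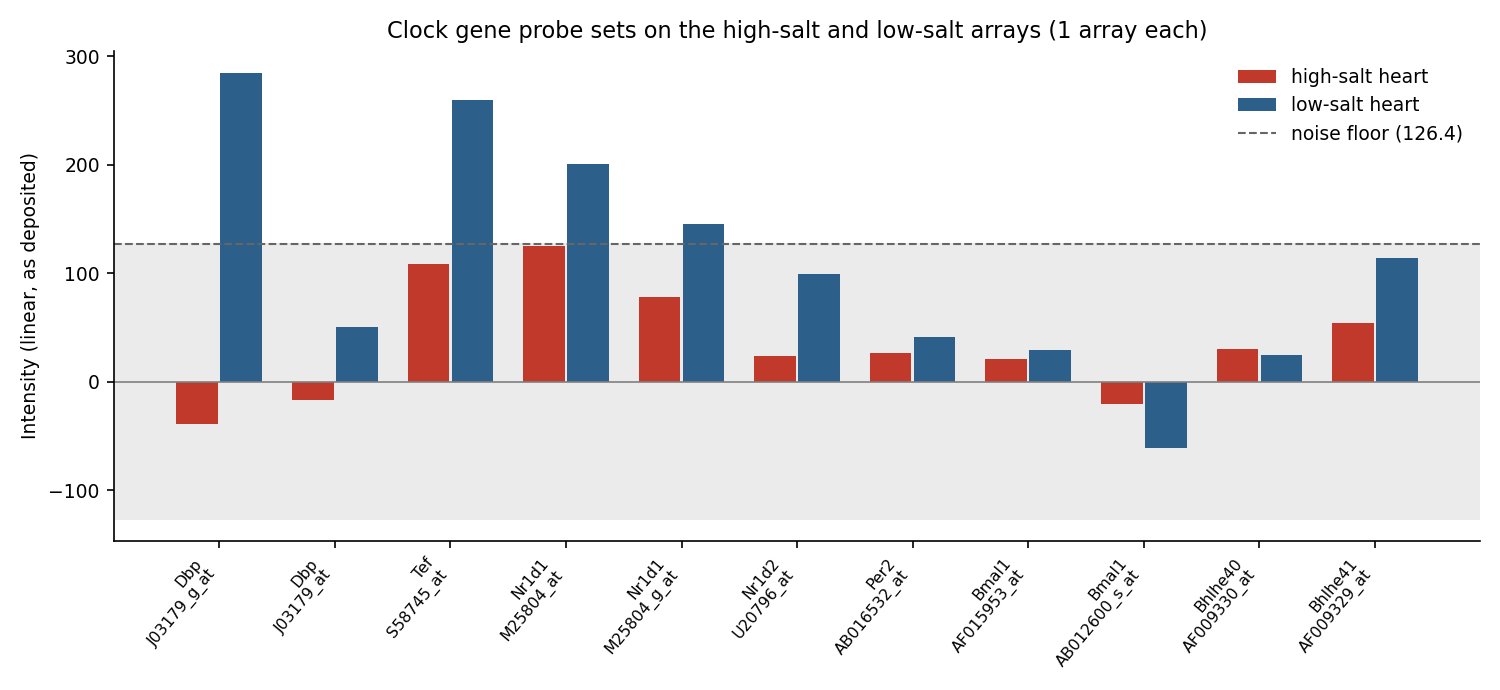
Bars give the deposited intensity of each member probe set on the high-salt array (red) and the low-salt array (blue), 1 array each, with the noise floor of 126.4 as a dashed line and the range of readings within it in grey. The low-salt bars of Dbp (J03179_g_at), Tef and both Nr1d1 probe sets stand above the floor, and no high-salt bar does.

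To set these differences beside the scatter of the arrays without a floor, the high-salt minus low-salt intensity of each member was compared with that of the 500 non-member probe sets nearest to it in mean intensity. For Dbp J03179_g_at the difference was -323.7, and the central 95% of its neighbours ran from -96.3 to 109.5. None of the 500 was as low. The difference of the dim J03179_at was -68.0, against a neighbour range of -41.5 to 30.0. At the mean intensity of either Dbp probe set, a difference of its size needs a reading below 0 on 1 array. For Dbp the comparison thus repeats its high-salt readings below 0 and adds no separate support. Tef differed by -150.7, just past its range of -143.1 to 147.6, and Nr1d2 by -75.1, just past -73.9 to 68.6. The other 7 member probe sets lay inside the range of their neighbours. Among them were Nr1d1 M25804_at, at -75.3 in a range of -130.7 to 135.3, and Bhlhe41, at -60.6 in a range of -83.5 to 79.8. This range describes the scatter of this pair of arrays and is not a test of the diets.

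**Figure D3:**
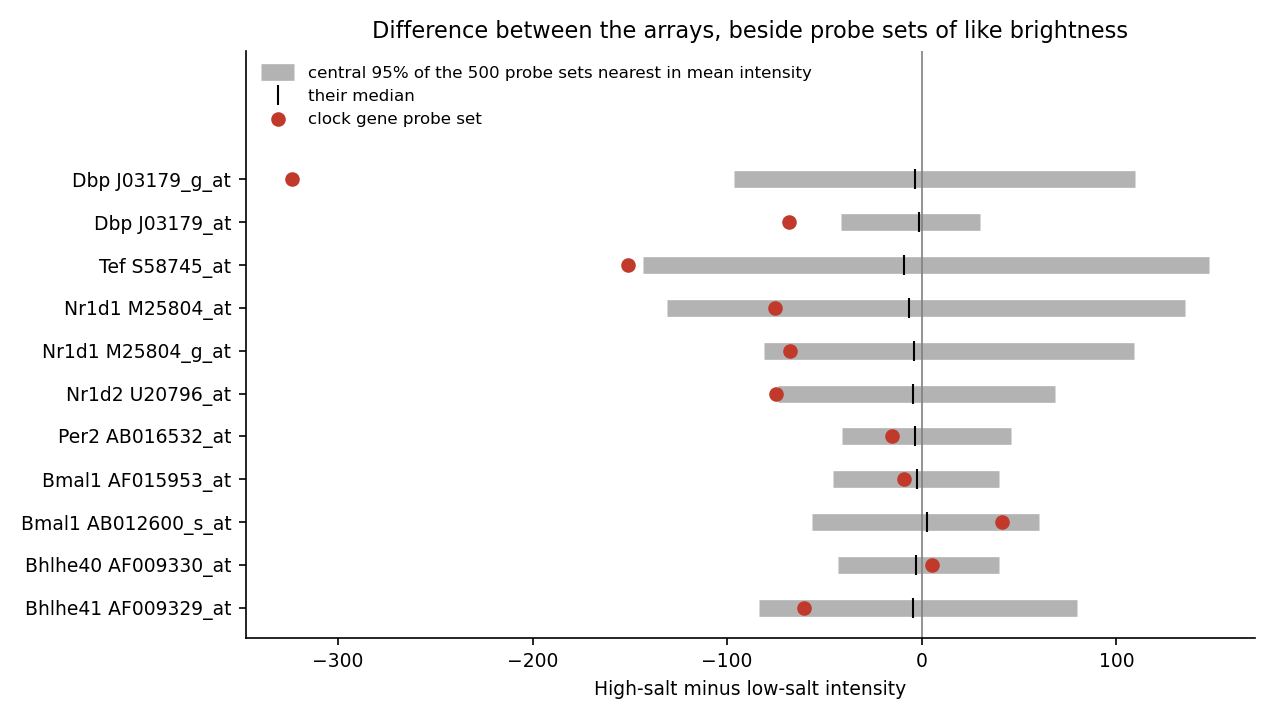
Red points give the high-salt minus low-salt intensity of each member probe set, grey bars the central 95% and black ticks the median of the 500 probe sets nearest in mean intensity. Both Dbp probe sets, Tef and Nr1d2 lie left of their bars, and Dbp J03179_g_at, at -323.7, is the farthest out.

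Other parts of the clock pathway were little represented. Of 21 further clock genes looked for, 6 had a probe set with 1 symbol, and 2 of these reached the noise floor. Csnk1d, a kinase that marks PER proteins for turnover, read 189.3 on the high-salt array and 180.6 on the low-salt array (L07578_at). The related kinase gene Csnk1a1 read 170.7 on high salt against 181.4 on low salt (U77583_at). None of the 3 measured probe sets of this list was 2-fold different, and their median log2 ratio was 0.07. Rorb, Timeless, Hlf and Gsk3b lay under the floor on both arrays in every probe set.

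Genes known to follow the clock in heart or liver gave a mixed picture. Of the 23 in this list, 11 had a probe set and 6 were measured, on 11 probe sets. Against the floor, 1 of these passed 2-fold downward and none upward. The 10 others hold 3 bounds, which do not place a probe set under 2-fold: as read, Adra1b and Ces1d (23.0 on high salt against 128.6 on low salt) were more than 2-fold lower. Bounds included, there were 7 ratios below 1, 4 above 1, and the median log2 ratio was -0.13. Pdk4, whose kinase product shuts down pyruvate dehydrogenase, read 85.6 on the high-salt array and 307.3 on the low-salt array and was at least 2.43-fold lower. Alas1, the first enzyme of haem synthesis outside the red cell and a target of PAR bZIP factors in mouse liver, read 265.2 on high salt against 412.1 on low salt and 238.1 on high salt against 373.4 on low salt, between 1.55-fold and 1.57-fold lower in both probe sets. Adra1b, the alpha-1B adrenergic receptor gene, was at least 1.74-fold lower at 106.8 on high salt against 220.6 on low salt. Por, which encodes the reductase that serves cytochrome P450 enzymes and is also a PAR bZIP target in mouse liver, had all 3 of its ratios above 1. Its brightest probe set read 478.6 on the high-salt array and 450.7 on the low-salt array, and its dimmest, E01524cds_s_at, read 201.5 on high salt against 102.3 on low salt, at least 1.59-fold higher. Lpl, the lipoprotein lipase gene, had a brightest probe set at 2821.9 on high salt against 3098.2 on low salt, a log2 ratio of -0.13, and its other probe sets had log2 ratios of 0.08 and -0.21.

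Clock transcripts also respond to glucocorticoids and to temperature, so genes of those responses were read beside them. In the glucocorticoid list, 5 of 9 genes with a probe set were measured, on 11 probe sets. None passed 2-fold against the floor in either direction, and the median log2 ratio was -0.39. Of the 11 ratios 4 are bounds, and 3 of those, from a probe set each of Klf9, Nfkbia and Dusp1, were more than 2-fold lower as read. Klf9, a glucocorticoid-induced repressor that also cycles with the clock, read 322.9 on the high-salt array and 543.1 on the low-salt array in its brighter probe set, 1.68-fold lower. Its other probe set was at least 1.83-fold lower (97.4 on high salt against 231.5 on low salt). Nfkbia, an inhibitor of NF-kappa-B, was 1.63-fold lower at 174.0 on high salt against 283.5 on low salt, and its dimmer probe set read 71.4 on high salt against 198.3 on low salt. Glul, the glutamine synthetase gene, had all 4 of its ratios above 1 and read 782.4 on the high-salt array and 601.9 on the low-salt array in its brightest probe set. Cebpd, a transcription factor of the acute phase, read 226.4 on high salt against 248.1 on low salt. Dusp1, a phosphatase of MAP kinases, completed the measured genes at 137.0 on high salt against 254.9 on low salt (S81478_s_at), 1.86-fold lower, and at 63.4 on high salt against 165.7 on low salt (U02553cds_s_at); it was named after its values were seen. In the temperature list 3 of 7 genes with a probe set were measured, and none of their 5 probe sets was 2-fold different. All 5 had a ratio below 1, as had 54.3% of all measured probe sets, with a median of -0.42. The heat shock factor Hsf1 read 253.3 on high salt against 365.1 on low salt, and the mitochondrial chaperone genes Hspd1 and Hspe1 read 836.4 on high salt against 1120.8 on low salt and 744.8 on high salt against 933.7 on low salt in their brightest probe sets. Cirbp, the cold-inducible RNA-binding protein gene, was under the floor at 12.9 on the high-salt array and 17.3 on the low-salt array.

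**Figure D4:**
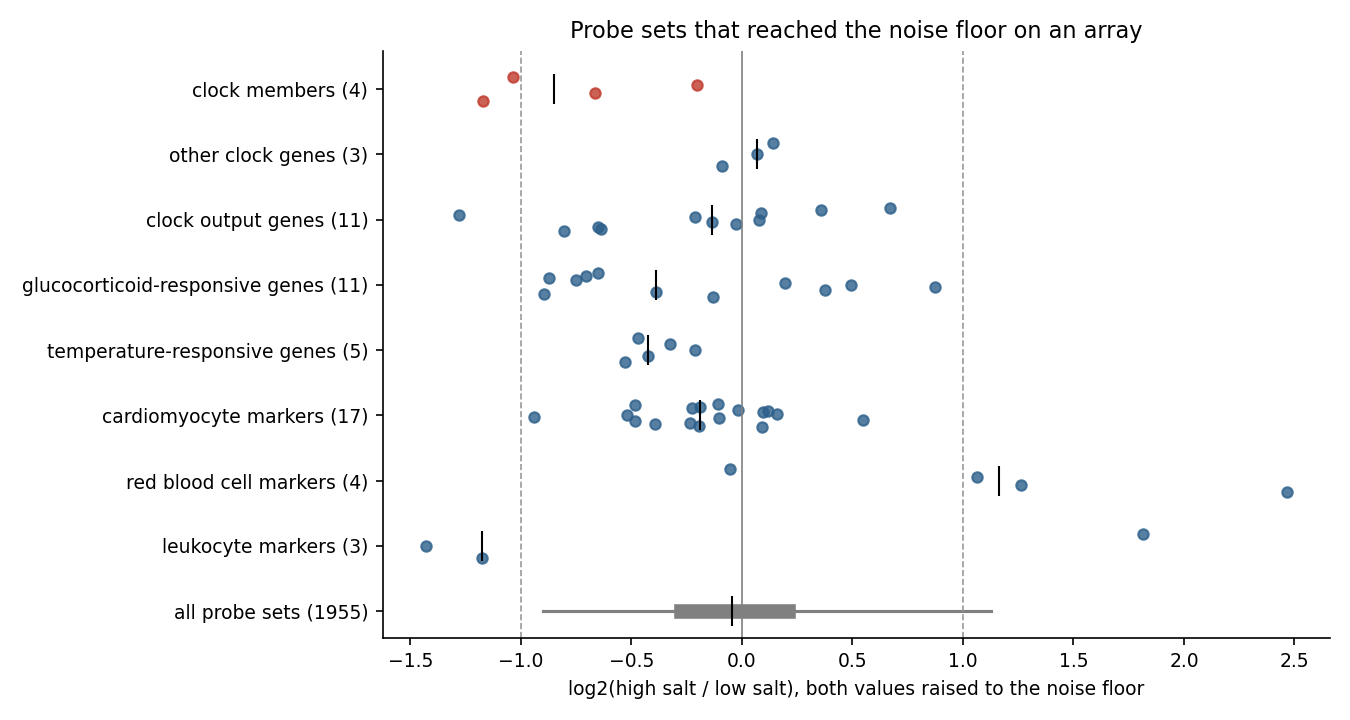
Points give log2 ratios (high-salt over low-salt array), with both readings raised to the noise floor, for each measured probe set of a list; ticks are medians, the bottom row shows the median, quartiles and central 95% of all 1955 probe sets, and dashed lines mark 2-fold. The 4 clock member points lie between -1.17 and -0.20, and the 3 points of other clock genes between -0.09 and 0.14.

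The tissue label was checked against markers, and markers of other cells were read on the same arrays. Heart muscle markers were abundant: 10 of 11 genes with a probe set were measured, none of 17 probe sets passed 2-fold against the floor, and their summed intensity over the brightest probe set of each gene was 49573 on the high-salt array and 51106 on the low-salt array. Of the 4 measured red blood cell probe sets 3 were at least 2-fold higher, those of Alas2, Hbb and 1 of Slc4a1, and the sum of the list was 7945 on the high-salt array and 3135 on the low-salt array. Of the 3 measured leukocyte probe sets, both for Cd74 were at least 2-fold lower and that for Lyz2 at least 2-fold higher, with sums of 1138 and 1319 in the high-salt and the low-salt heart. The leukocyte marker Cd8a read 0 or less on both arrays. Fibroblast sums were 4990 and 3910 in the high-salt and the low-salt heart, and 1 of 14 measured fibroblast probe sets, that of S100a4, was at least 2-fold higher. The fibroblast list had no common direction: of the 14 ratios 7 were below 1 and 7 above 1, with a median log2 ratio of 0.02. None of the endothelial markers reached the noise floor. Among smooth and skeletal muscle markers, none of the 5 measured probe sets was 2-fold different. The part of these shifts in the clock values was not tested, and in whole tissue fewer cells of a type and less RNA per cell cannot be told apart.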

How the data were processed

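Biotin-labelled cRNA of 1 heart RNA per diet was read on 1-colour arrays, per the labels' protocols. The authors deposited 1 intensity per probe set and array; which software made them is not stated in the labels. Groups came from the source names. The trimmed means differed by 0.0986%, under the 10% set for use as deposited, so the deposited intensities were not rescaled. Gene symbols came from the 2016 platform annotation (7006 with 1 symbol, 308 with several, 1426 with none), and only probe sets with 1 symbol were named. Sequences are from RefSeq.

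The members, gene lists, floors and settings were chosen with earlier results of these data known. With 1 array per group no p-value was computed, and the number of arrays limits the precision. Named were all members, list genes past 2-fold, the further clock genes, and up to 4 others of a list by brightness; marker lists are given mainly as counts and sums. Alternatives were other scalings, floors, thresholds and the brightest probe set per gene. The code of the ratio, count and motif steps was tested on simulated data. The error of calls on readings near the noise floor, such as those of the members, was not tested. Python 3.11.15, numpy 2.4.6, pandas 2.3.3, statsmodels 0.14.6 (loess, span 0.4) and matplotlib 3.10.9 were used.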

Additional observations from a re-analysis of the deposited data

How the results depend on the processing

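The count of 2 of 4 member probe sets at least 2-fold lower was the same under trimmed mean, quantile and loess scaling. It was 2 of 6 with the floor moved to 63.2 and 2 of 3 with the brightest probe set per gene. Median scaling gave 1 of 4 (Dbp alone). A floor at the 40th percentile of all values (10.9) gave 5 of 10, and no floor gave 3 of 8. At 1.5-fold it was 3 of 4 and at 3-fold 0 of 4. Dbp has no value without a floor and is not among the 3 counted there. Over all probe sets, the share lower was counted only at the noise floor (1.69%) and at the floor of 10.9 (7.62%). No member probe set was 2-fold higher in any of these settings, and the median over member probe sets ran from -1.04 to -0.79. With the deposited values and the noise floor of 126.4, the 4 measured member probe sets reached the floor on the low-salt array alone. None could have come out higher there, so the direction and the median add no support. The count of 2 of 4 has no like share over all probe sets beside it. The count of all probe sets past 2-fold in either direction, 102, moved to 850 with the floor at 10.9, to 204 with the floor at 63.2 and to 1039 without a floor; it was 347 at 1.5-fold and 25 at 3-fold, as a wider or narrower threshold gives by construction. The log2 ratio of Dbp J03179_g_at was -4.71 with the floor at 10.9, -2.17 with the floor at 63.2 and between -1.18 and -1.13 under the other scalings; it has no value without a floor, because its high-salt reading was below 0. No paired analysis was possible because each diet has 1 array. Signal over background limits all member readings: 7 of 11 probe sets gave no ratio.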

Other observations

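The promoter letters searched in the clock genes were also read across the array. Among measured probe sets whose gene had a RefSeq promoter window (1325 probe sets, 1018 genes), the median log2 ratio (high-salt over low-salt array) was -0.06. The members were not removed from these counts. The median was -0.03 over the 123 probe sets of genes with the E-box letters in a window. Of these, 1 was at least 2-fold lower, the member Tef itself, and 4 were at least 2-fold higher. For the RORE core it was -0.08 over 189 probe sets, with 7 at least 2-fold lower and 5 at least 2-fold higher. Only 3 measured genes had D-box letters in a window, on 5 probe sets, too few to describe. Over all windows, 26 probe sets were at least 2-fold lower, Dbp and Tef among them, and 43 at least 2-fold higher.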
